A study of Mus musculus with 16 samples.

Results

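The IL-2 receptor and STAT5 axis was followed as 10 genes of the 52997 gene symbols in the deposited table. The genes were listed by name for their place in the pathway, with earlier results of these data known. They are the receptor chains Il2ra, Il2rb and Il2rg, the Janus kinases Jak1 and Jak3, the transcription factors Stat5a and Stat5b, the feedback inhibitors Cish and Socs2, and the IL-7 receptor chain Il7r. All 10 passed the filter on low counts, with between 148 and 11445 reads in a library.

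RNA was sequenced from regulatory T cells (Tregs), T cells that express Foxp3 and hold other immune cells in check, of Foxp3-GFP mice on the B6 background aged 6 to 8 weeks. Transgenic (Tg) mice carried mTreg24, a T cell receptor (TCR) taken from a muscle Treg. Their TCR-tg- littermates are called WT here. The groups were Tregs of WT muscle, Tg muscle, WT spleen and Tg spleen, sorted 3 days after cardiotoxin, a snake venom product used to destroy muscle fibres, and Tregs of uninjured Tg spleen. Each group had 2 libraries. The injury state of WT spleen comes from the series' design text. All groups share the Foxp3-GFP reporter, on which the cells were sorted. Cells of Tg mice were also gated on Vβ8 while WT cells were total Tregs, so genotype and gate cannot be told apart. CD25 protein, the product of Il2ra, was not part of the stated gate.

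IL-2 binds a receptor of 3 chains. Il2ra (CD25) gives it high affinity, and Il2rb (CD122) and Il2rg (the common gamma chain) carry the signal through the Janus kinases Jak1 and Jak3. These kinases phosphorylate STAT5 proteins, which then bind DNA and switch on target genes, among them Cish, Socs2, Il2ra and Foxp3. Tregs make almost no IL-2 themselves, depend on IL-2 from other cells and keep CD25 high. Il7r (CD127) pairs with the common gamma chain to bind IL-7, signals through the same kinases and STAT5, and is usually low on resting Tregs.

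Promoter windows of 300 bases, from 250 before to 50 after the annotated start, were read from RefSeq for 8 of the 10 genes (10 windows, build GRCm38.p6). They were searched on both strands for the STAT consensus TTCNNNGAA, which is its own reverse complement. Of the 10 windows 2 held a match, 1 of Cish and 1 of Il7r. Among all 32851 windows of this length 8.3% held at least 1 match and 0.457% held at least 2. Both stretches are shown because these 2 genes differ between tissues below, and the capitals mark the matches. The Cish stretch, chr9:107296654-107296683 on the plus strand, begins its matches 0 and 11 bases after the RefSeq start, inside a GENCODE exon of Cish. The Il7r stretch, chr15:9529990-9530038 on the minus strand, begins its match 142 bases before the RefSeq start. It lies in no GENCODE exon, but inside the span of the GENCODE gene, which begins further upstream at position 9530176.
Cish: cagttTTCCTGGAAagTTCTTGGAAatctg
Il7r: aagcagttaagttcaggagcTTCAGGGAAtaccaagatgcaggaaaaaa
Binding was not measured in this study, so the matches are a description of the letters only. Il2rb and Socs2 were not searched.

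Total counts per Treg library ran from 1986700 to 9116800. The deepest, WT muscle replicate 2, had the fewest genes detected, 17081. Between the 2 libraries of a group the chi-square per degree of freedom was 31 in WT muscle and 5.57 to 9.27 in the other groups. Foxp3, the factor that defines Tregs, lay between 1054 and 2314 CPM (counts relative to library size and TMM factor) and Cd4 between 616.4 and 881.8 CPM in the 10 libraries. Foxp3 was higher in muscle, by 0.68 ± 0.13 on the log2 scale in WT (SE, edgeR adjusted p = 0.00254) and by 0.90 ± 0.13 in Tg (edgeR adjusted p = 0.00046). Cell dissociation and heat response genes moved with tissue: the summed level of 15 such genes was 9252 to 11830 CPM in the 4 muscle libraries and 2209 to 2712 CPM in the 6 spleen libraries. In both tissue comparisons 12 of these 15 genes were called higher, where 9.38% of all genes were in WT and 4.83% in Tg. The 9 macrophage and monocyte markers summed to 22.6 to 50.86 CPM in muscle and 80.78 to 194.5 CPM in spleen. The 7 B cell markers summed to 1872 CPM in WT spleen replicate 2 and to at most 170 CPM in every other library. NK cell markers reached at most 6.731 CPM and neutrophil markers at most 0.4906 CPM. The part of any of these in the differences below was not tested. In bulk libraries, fewer cells of a type and less RNA per cell cannot be told apart.

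Levels between genes were compared as TPM, which divides counts by exon length before scaling to a fixed total. Il2rg was the most abundant member in each of the 5 groups, with group means between 1020 and 1400 TPM. Il2rb came next in each group, with means between 689 and 864 TPM. Socs2 was lowest in each group, with means between 14.5 and 48.1 TPM, and Stat5a and Stat5b stood just above it. The middle of the order changed with group. Il2ra had rank 3 of 10 in Tg muscle, at 477 ± 141 TPM (SD, n = 2), and rank 6 in uninjured Tg spleen, at 173 ± 7.71 TPM. Neighbours in the middle could not be separated by their spread: in WT muscle Jak1 had 363 ± 51.5 TPM, Cish 352 ± 44.5 TPM and Il2ra 350 ± 49.9 TPM (SD, n = 2).

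**Figure D1:**
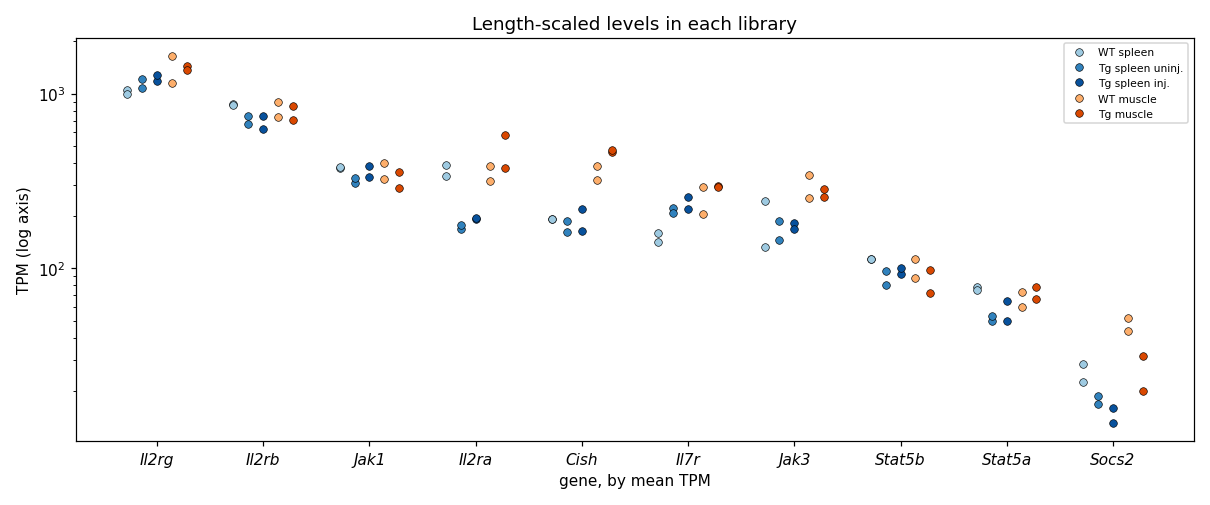
Length-scaled level (TPM, log axis) of each member in the 10 Treg libraries, 1 point per library, coloured by group and ordered by mean level. Il2rg and Il2rb lie highest, Socs2 lowest, and the Il2ra points of the 4 Tg spleen libraries lie below those of the other 6.

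Il2ra, the high-affinity chain, was the 1 member whose tissue difference was called different between genotypes. It stood at 768.8 and 645.3 CPM in WT muscle, 860.1 and 1261 CPM in Tg muscle, 637 and 753.1 CPM in WT spleen, 368.5 and 370.3 CPM in injured Tg spleen, and 358.9 and 346.2 CPM in uninjured Tg spleen. The 4 Tg spleen libraries were all below the other 6, WT muscle and WT spleen overlapped, and Tg muscle was highest. Between WT muscle and WT spleen the difference was 0.02 ± 0.16 on the log2 scale (SE, edgeR quasi-likelihood, adjusted p = 0.947), with a 95% interval from -0.33 to 0.37. In Tg mice Il2ra was 2.87-fold higher in muscle than in injured spleen (log2 1.52 ± 0.17, edgeR adjusted p = 3.59e-05).

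The interaction term, which tests the Tg tissue difference against the WT one, was 1.5 ± 0.23 for Il2ra (edgeR adjusted p = 0.0245, 95% interval 1 to 2). Of all 13188 genes tested, 0.136% were called in this term, 0.0531% higher and 0.0834% lower, and Il2ra was the 1 member among them. The call was lost when WT spleen replicate 2 was left out (log2 1.36, adjusted p = 0.0893), when injured Tg spleen replicate 1 (1.49, 0.129) or replicate 2 (1.49, 0.145) was left out, and when only the compared groups were fitted (1.49, 0.0683). The direction held in each of these fits.

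Both sides of the interaction were compared separately. In spleen, Il2ra was 1.88-fold lower in injured Tg than in WT Tregs (log2 -0.91 ± 0.17, edgeR adjusted p = 0.0114). Here 1.3% of all genes were called, 0.887% higher and 0.417% lower, and Il2ra was the 1 called member of 10. That call was also lost without WT spleen replicate 2 (adjusted p = 0.138), injured Tg spleen replicate 1 (0.137) or replicate 2 (0.126). In muscle, both Tg libraries lay above both WT libraries, but the difference of 0.59 ± 0.16 missed the threshold (edgeR adjusted p = 0.22). Leaving out 1 library gave 0.27 to 0.83 in muscle, the lowest without Tg muscle replicate 2, and none of these passed. In muscle 0.318% of all genes were called between genotypes, 0.121% higher and 0.197% lower in Tg. Of the 10 members edgeR called 0 there, DESeq2 also called 0, and 4 had an unadjusted p under 0.05.

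The signalling chains had narrower ranges. Il2rb, which binds IL-2 and IL-15, had 1103 and 1372 CPM in WT muscle, 1205 and 1401 CPM in Tg muscle, 1239 and 1248 CPM in WT spleen, 1078 and 900.3 CPM in injured Tg spleen, and 1194 and 972.7 CPM in uninjured Tg spleen. Its range across all 10 libraries was 1.56-fold, against 3.64-fold for Il2ra. Il2rb passed the test in no comparison, with -0.01 ± 0.15 between tissues in WT (edgeR adjusted p = 0.984) and 0.40 ± 0.15 in Tg (edgeR adjusted p = 0.129). The WT interval ran from -0.32 to 0.31.

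Il2rg, shared by the receptors for IL-2, IL-4, IL-7, IL-9, IL-15 and IL-21, had 959.7 and 1404 CPM in WT muscle, 1374 and 1251 CPM in Tg muscle, 827.9 and 800.8 CPM in WT spleen, 945 and 1024 CPM in injured Tg spleen, and 965.5 and 990.9 CPM in uninjured Tg spleen. Both WT muscle libraries lay above both WT spleen libraries, though they differed widely from each other. The WT difference was 1.45-fold (log2 0.54 ± 0.15, edgeR adjusted p = 0.0275). This call was lost without WT muscle replicate 2, where the log2 difference was 0.25 (adjusted p = 0.301), and without WT spleen replicate 1 (0.0812) or replicate 2 (0.139). The Tg difference of 0.42 ± 0.15 did not pass (edgeR adjusted p = 0.124). With only the compared groups fitted, the Tg difference passed (edgeR adjusted p = 0.0304) and the WT one did not (0.131). The tissue differences of the genotypes were not called different (interaction -0.12, 95% interval -0.58 to 0.34).

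**Figure D2:**
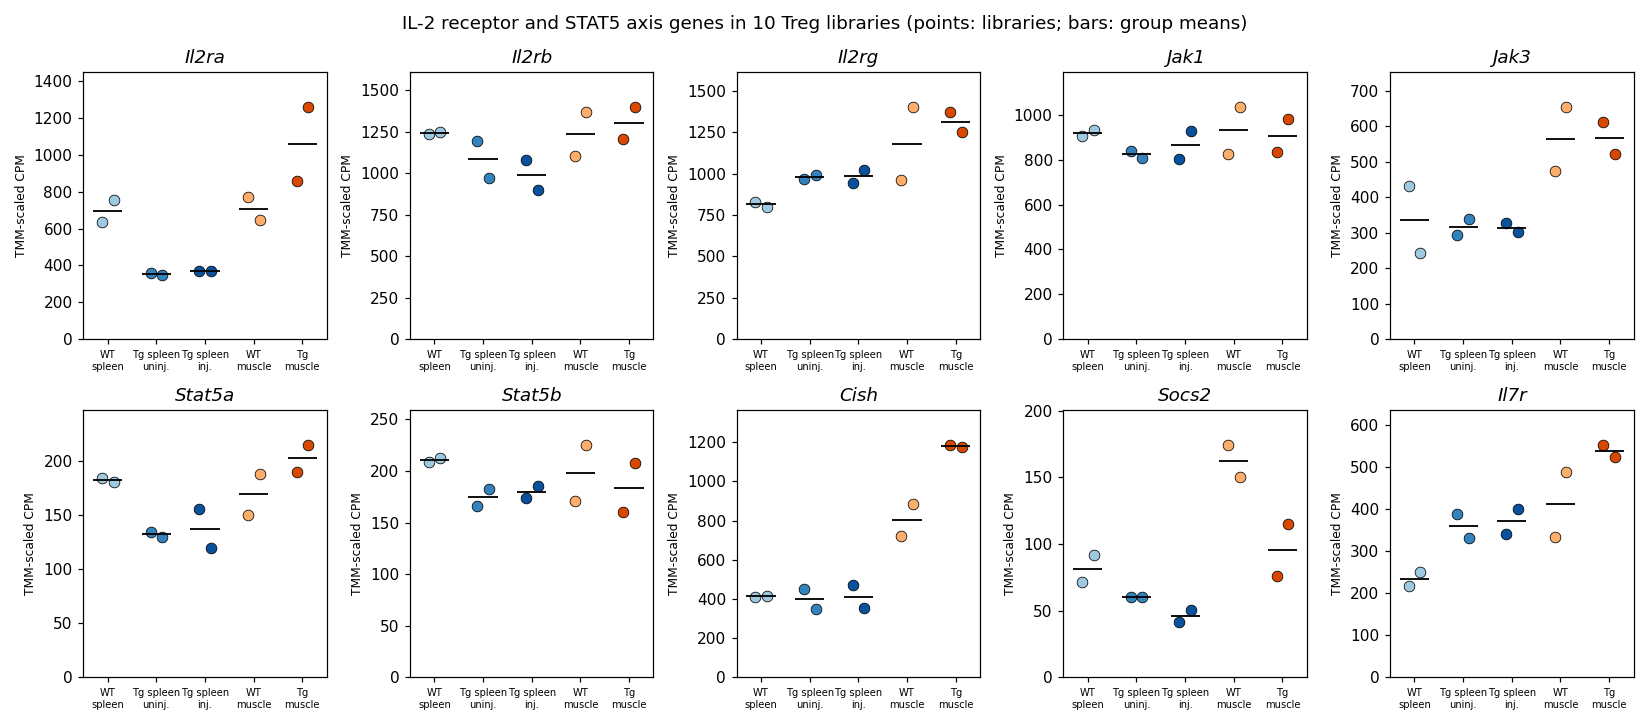
TMM-scaled CPM of each of the 10 genes in the 10 Treg libraries, 1 panel per gene with a linear axis from 0. Points are libraries and bars are group means of 2. For Il2ra the Tg spleen libraries lie between 346.2 and 370.3 CPM and the others between 637 and 1261 CPM.

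Jak1, the kinase bound to Il2rb, was the steadiest member, with values from 803.8 to 1036 CPM and a range of 1.29-fold over the 10 libraries. It was called in no comparison, and its tissue differences were 0.02 in WT (95% interval -0.28 to 0.31) and 0.07 in Tg (95% interval -0.23 to 0.36). Jak3, the kinase bound to the common gamma chain, had 474.6 and 655.3 CPM in WT muscle, 612.5 and 522.7 CPM in Tg muscle, 432.7 and 242.1 CPM in WT spleen, 327.5 and 302.1 CPM in injured Tg spleen, and 294.1 and 338.5 CPM in uninjured Tg spleen. All 4 muscle libraries were above all 6 spleen libraries. The differences of 0.75 ± 0.25 in WT (edgeR adjusted p = 0.0632) and 0.85 ± 0.24 in Tg (edgeR adjusted p = 0.0667) did not pass. With DESeq2 both did (adjusted p = 0.00993 and 0.00422). The WT difference ran from 0.4 to 1.23 when leaving out 1 library and passed without WT spleen replicate 1 (1.23, adjusted p = 0.00162) or WT muscle replicate 1 (0.98, 0.0307). Jak3 shares exon bases with Insl3, which had 4 to 55 counts in a library.

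Stat5a and Stat5b encode the 2 near-identical STAT5 proteins and lie 8626 bases apart on chromosome 11. Stat5a had 150.7 and 188 CPM in WT muscle, 190.3 and 215.1 CPM in Tg muscle, 184.6 and 181.1 CPM in WT spleen, 155.5 and 120 CPM in injured Tg spleen, and 134.8 and 130.3 CPM in uninjured Tg spleen. Tg muscle was above Tg spleen in both libraries, while WT muscle straddled WT spleen. The Tg tissue difference of 0.56 ± 0.17 did not pass (edgeR adjusted p = 0.0572) but did with DESeq2 (adjusted p = 0.0462). The interaction for Stat5a was 0.67 ± 0.24 (edgeR adjusted p = 0.451).

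Stat5b stayed between 160.1 and 225.1 CPM in the 10 libraries and was called in no comparison, with tissue differences of -0.09 in WT (95% interval -0.44 to 0.27) and 0.04 in Tg (95% interval -0.32 to 0.40). Within a library, the ratio of Stat5a to Stat5b counts was 1.19 and 1.04 in Tg muscle and between 0.646 and 0.896 in the other 8 libraries. This ratio was chosen after the counts were seen and was not tested. Of the windows of 25 bases in the exons, 13% of Stat5a and 17% of Stat5b occur in the other gene, and the 3′ ends of Stat5a and Stat3 overlap by 72 bases on opposite strands. Reads there could be credited to either gene or dropped.

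Cish, a feedback inhibitor that STAT5 induces, was higher in muscle in both genotypes. It had 719.8 and 884.4 CPM in WT muscle, 1186 and 1177 CPM in Tg muscle, 411.1 and 415.4 CPM in WT spleen, 471.1 and 353.5 CPM in injured Tg spleen, and 452.4 and 351.8 CPM in uninjured Tg spleen. The muscle and spleen libraries did not overlap, and the 6 spleen libraries lay close together. Cish was 1.94-fold higher in muscle in WT (log2 0.96 ± 0.16, edgeR adjusted p = 0.001) and 2.87-fold higher in Tg (log2 1.52 ± 0.16, edgeR adjusted p = 2.77e-05). Leaving out any 1 library gave 0.81 to 1.11 in WT and 1.33 to 1.74 in Tg, all called. The interaction of 0.56 ± 0.23 did not pass (edgeR adjusted p = 0.562). The Tg muscle libraries were above the WT muscle libraries, by 0.56 ± 0.16, which did not pass either (edgeR adjusted p = 0.238). Cish did not separate the spleens: the injured Tg minus WT difference was 0.00, with a 95% interval from -0.35 to 0.34.

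Socs2, which restrains cytokine and growth hormone receptors, was also higher in muscle. It had 174.2 and 149.9 CPM in WT muscle, 75.91 and 114.8 CPM in Tg muscle, 71.16 and 92.02 CPM in WT spleen, 41.92 and 50.69 CPM in injured Tg spleen, and 60.38 and 60.01 CPM in uninjured Tg spleen. Within each genotype muscle was above spleen, but Tg muscle overlapped WT spleen. The tissue difference was 1.97-fold in WT (log2 0.98 ± 0.21, edgeR adjusted p = 0.0062) and 2.07-fold in Tg (log2 1.05 ± 0.22, edgeR adjusted p = 0.00753). The WT call was lost without WT spleen replicate 1 (adjusted p = 0.0602), and the Tg call without Tg muscle replicate 2 (0.121) or injured Tg spleen replicate 1 (0.104).

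Between genotypes Cish and Socs2 had opposite signs in muscle. Socs2 was at -0.76 ± 0.21 in Tg against WT muscle (edgeR adjusted p = 0.219) and -0.83 ± 0.22 in injured Tg against WT spleen (edgeR adjusted p = 0.0941). Neither passed. The spleen value did with DESeq2 (adjusted p = 0.0494). The ratio of Cish to Socs2 counts was 15.6 and 10.3 in Tg muscle, 4.13 and 5.9 in WT muscle, 5.78 and 4.51 in WT spleen, 11.2 and 6.97 in injured Tg spleen, and 7.49 and 5.86 in uninjured Tg spleen. Tg muscle lay above WT muscle but overlapped injured Tg spleen. The ratio was chosen after the counts were seen and was not tested.

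**Figure D3:**
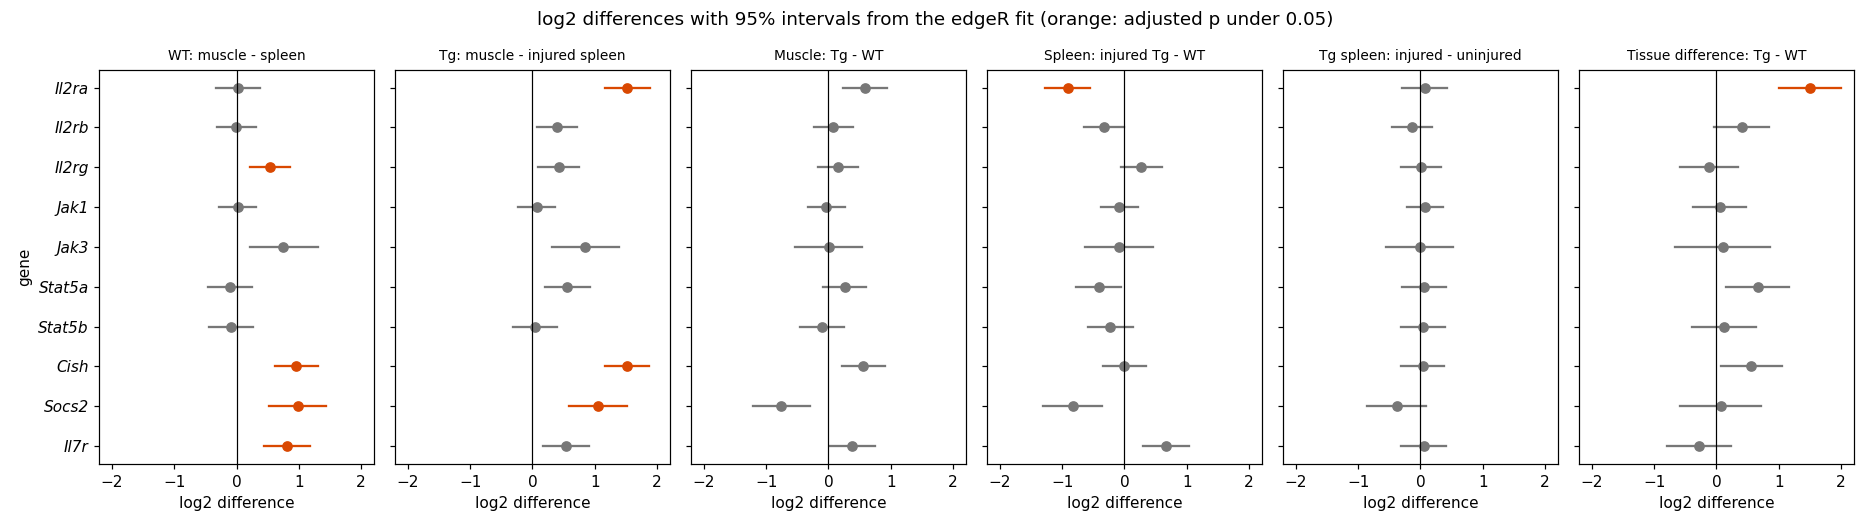
log2 difference of each member in 5 comparisons and in the interaction, with the 95% interval from the edgeR fit; orange points have an adjusted p under 0.05. Cish and Socs2 are orange in both tissue comparisons, and Il2ra is orange in the Tg tissue comparison, the spleen comparison and the interaction.

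Il7r, the IL-7 receptor chain, had 334 and 489.3 CPM in WT muscle, 552.7 and 523.5 CPM in Tg muscle, 217.8 and 251 CPM in WT spleen, 341.7 and 400.8 CPM in injured Tg spleen, and 388.2 and 331.3 CPM in uninjured Tg spleen. WT spleen was lowest and Tg muscle highest, and the Tg spleen libraries overlapped those of WT muscle. In WT, Il7r was 1.75-fold higher in muscle (log2 0.81 ± 0.17, edgeR adjusted p = 0.00513). That call was lost without WT muscle replicate 2, where the log2 difference was 0.52 (adjusted p = 0.0539), and with only the compared groups (0.0508). The Tg tissue difference of 0.54 ± 0.17 did not pass (edgeR adjusted p = 0.0749). It did with only the compared groups (edgeR adjusted p = 0.0176) and with no filter on low counts (0.0154). The tissue differences of the genotypes were not called different (interaction -0.28 ± 0.24, edgeR adjusted p = 0.847). In spleen, both injured Tg libraries were above both WT libraries, by 0.66 ± 0.17, which did not pass (edgeR adjusted p = 0.086) but did with DESeq2 (adjusted p = 0.0266).

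Between the spleens of the genotypes Il2ra and Il7r had opposite signs, of which that of Il2ra passed the test. The ratio of Il2ra to Il7r counts within a library was 2.92 and 3 in WT spleen, 1.08 and 0.924 in injured Tg spleen, 0.924 and 1.04 in uninjured Tg spleen, 2.3 and 1.32 in WT muscle, and 1.56 and 2.41 in Tg muscle. The 4 Tg spleen libraries lay below the other 6, and both WT spleen libraries lay above all others. The ratio compares libraries, not the 2 genes' levels, since it is not divided by length. It too was chosen after the counts were seen and was not tested.

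**Figure D4:**
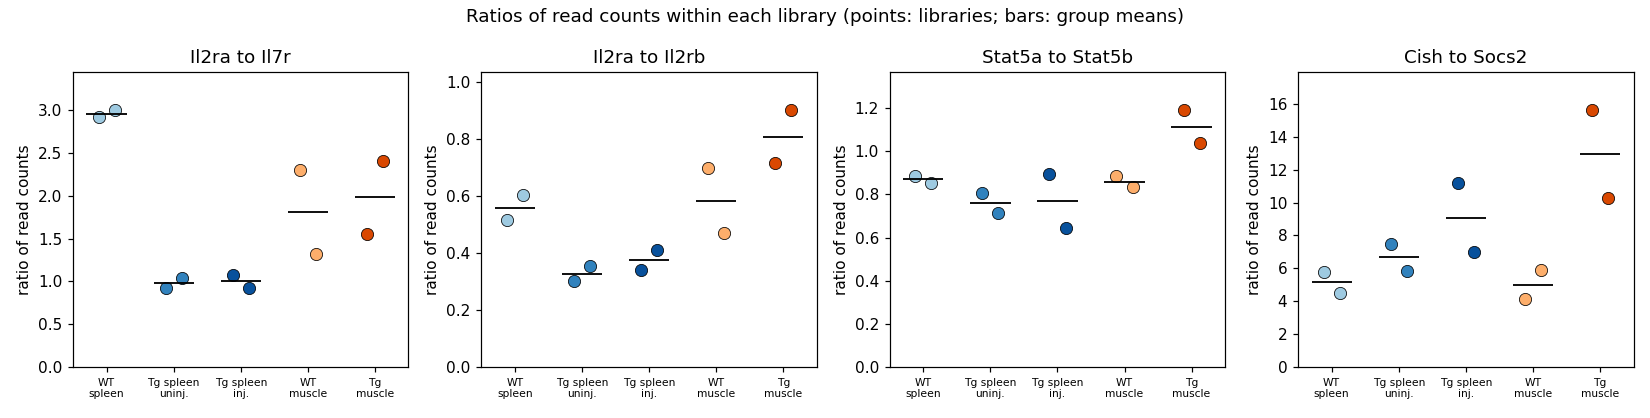
Ratios of read counts between members within each library, by group, 1 point per library. The Il2ra to Il7r ratio lies between 0.924 and 1.08 in the 4 Tg spleen libraries and at 2.92 and 3 in WT spleen.

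Counted over the members, the WT tissue comparison called 4 of 10 higher in muscle (Il2rg, Cish, Socs2 and Il7r) and 0 lower. In that comparison 16.2% of all genes were called, 9.38% higher and 6.87% lower. This share rests on 2143 genes, a number that ran from 887 (without WT spleen replicate 2) to 2768 (without WT muscle replicate 1) when leaving out 1 library. The median log2 difference was 0.28 over the members and -0.04 over all tested genes. The Tg tissue comparison called 3 of 10 higher (Il2ra, Cish and Socs2) and 0 lower, with 7.38% of all genes called, 4.83% higher and 2.55% lower. Those 973 genes fell to between 452 and 640 when leaving out 1 library. Its median was 0.55 over the members and -0.04 over all tested genes.

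Injury left no called difference in Tg spleen. Between injured and uninjured Tg spleen edgeR and DESeq2 each called 0 members, 0 members had an unadjusted p under 0.05, and 0% of all genes were called by edgeR or DESeq2 (236 genes had an unadjusted p under 0.05). The largest difference among members was that of Socs2, at -0.38 ± 0.22 (edgeR adjusted p = 1, 95% interval -0.85 to 0.09). Il2ra differed by 0.07, with a 95% interval from -0.29 to 0.42, and Cish by 0.04, with one from -0.31 to 0.38. Intervals of that width leave room for changes of modest size.

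Other genes of the pathway were taken from lists named by function. The cytokines themselves were close to undetected: of Il2, Il4, Il7, Il9, Il15, Il21 and Tslp, 0 of 7 passed the filter on low counts. Il2 had at most 2 counts in a library and 0 in 8 libraries, and a count of 0 allows up to 3 counts, or 0.368 to 1.442 CPM depending on the library. Il4 reached 16 counts.

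Of 6 other receptor chains of these cytokines, 2 were higher in WT muscle, where 9.38% of all genes were higher. In Tg muscle 3 were higher, where 4.83% of all genes were, and 0 were lower in either genotype. The Tg count fell to 0 or 1 when any 1 compared library was left out, and the WT count to 1 without WT spleen replicate 2. Il9r, the IL-9 receptor chain, had 40.9 and 57.65 CPM in WT muscle, 86.76 and 76.53 CPM in Tg muscle, 12.98 and 21.32 CPM in WT spleen, 70.25 and 84.11 CPM in injured Tg spleen, and 84.95 and 68.72 CPM in uninjured Tg spleen. WT spleen was set apart as the low group. Il9r was higher in WT muscle than WT spleen (log2 1.48 ± 0.27, edgeR adjusted p = 0.00153) and in injured Tg than WT spleen (log2 2.12 ± 0.27, edgeR adjusted p = 0.00108), and in Tg its tissue difference was 0.08 ± 0.24 (edgeR adjusted p = 0.911). Its interaction of -1.40 ± 0.36 did not pass (edgeR adjusted p = 0.248). Crlf2, the TSLP receptor chain that pairs with Il7r, was higher in muscle in both genotypes, by 1.18 ± 0.25 in WT and 0.97 ± 0.24 in Tg (edgeR adjusted p = 0.00447 and 0.0216). Il4ra and Il21r were each higher by 0.53 in Tg muscle (edgeR adjusted p = 0.0244 and 0.0463).

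Of 7 other Janus kinases and STATs, 4 were higher in WT muscle, where 9.38% of all genes were higher. In Tg muscle 3 were higher, where 4.83% of all genes were, and 0 were lower in either genotype. The WT count fell to 1 without WT muscle replicate 2 or WT spleen replicate 2. Stat3, which signals for IL-6, IL-10 and IL-21 and neighbours Stat5a, had 553.9 and 647.3 CPM in WT muscle, 763.6 and 882.1 CPM in Tg muscle, 414.9 and 402.1 CPM in WT spleen, 325.2 and 325.9 CPM in injured Tg spleen, and 323.8 and 310 CPM in uninjured Tg spleen. Muscle lay above spleen in every library. The difference was 0.56 ± 0.13 in WT (edgeR adjusted p = 0.00881) and 1.34 ± 0.13 in Tg (edgeR adjusted p = 1.15e-05), and the interaction of 0.78 ± 0.18 did not pass (edgeR adjusted p = 0.185). Jak2 was higher by 0.98 ± 0.19 in WT and 1.11 ± 0.19 in Tg (edgeR adjusted p = 0.00302 and 0.00202). Stat2, of the interferon pathway, was higher by 0.74 ± 0.22 and 0.77 ± 0.22 (edgeR adjusted p = 0.033 and 0.0436).

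Of 18 other inhibitors of this signalling, 0 were higher in muscle in either genotype, where 9.38% of all genes were higher in WT and 4.83% in Tg. In WT, 2 were lower, where 6.87% of all genes were, so with a list of this size neither count is read as a result about the list. The 2 were Socs5, lower by -2.33 ± 0.39 and Ptpn6, the phosphatase SHP-1, lower by -0.90 ± 0.17 (edgeR adjusted p = 0.00081 and 0.0019). In Tg edgeR called 0, DESeq2 called 2, and 5 had an unadjusted p under 0.05. Socs3, the feedback inhibitor of STAT3 signalling, was lower in injured Tg than WT spleen (log2 -1.31 ± 0.25, edgeR adjusted p = 0.0298), a call lost without WT spleen replicate 1 or either injured Tg spleen library.

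Of 22 genes known to be raised by STAT5 in T cells, 10 were higher and 2 lower in WT muscle, and 12 were higher and 1 lower in Tg muscle. Over all genes 9.38% were higher and 6.87% lower in WT muscle, and 4.83% were higher and 2.55% lower in Tg muscle. The list was chosen with earlier results of these data known, and the part of STAT5 in these differences was not tested. The list medians were 0.51 and 1.02, against -0.04 over all tested genes in both comparisons. Gzmb, the cytotoxic protease granzyme B, had 1043 and 1306 CPM in WT muscle, 1467 and 2136 CPM in Tg muscle, 51.92 and 27.02 CPM in WT spleen, 163.2 and 199.4 CPM in injured Tg spleen, and 248 and 207.5 CPM in uninjured Tg spleen. Its tissue difference was 4.95 ± 0.33 in WT and 3.31 ± 0.30 in Tg (edgeR adjusted p = 1.92e-05 and 0.000176), and it was higher in injured Tg than WT spleen by 2.25 ± 0.31 (edgeR adjusted p = 0.00935). In that spleen comparison the list's 2 calls, Gzmb and Bcl2, fell to 1 without WT spleen replicate 2 and to 0 without either injured Tg spleen library. Nfil3, a transcription factor, was higher in muscle by 3.63 ± 0.78 and 3.48 ± 0.73 (edgeR adjusted p = 0.0168 and 0.0265).

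Bcl2, a survival factor on the same list, was called lower in muscle in both genotypes. It had 23.73 and 12.14 CPM in WT muscle, 8.227 and 9.321 CPM in Tg muscle, 249 and 337.3 CPM in WT spleen, 94.5 and 115.7 CPM in injured Tg spleen, and 110.9 and 103.1 CPM in uninjured Tg spleen. It was lower in muscle by -4.07 ± 0.28 in WT and -3.57 ± 0.30 in Tg (edgeR adjusted p = 4.68e-07 and 4.97e-06), and lower in injured Tg than WT spleen by -1.48 ± 0.25 (edgeR adjusted p = 0.00669). Lta, which encodes lymphotoxin alpha, was the other lower gene in WT muscle (log2 -1.53 ± 0.33, edgeR adjusted p = 0.00525).

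Of 5 genes known to be lowered by STAT5 in T cells, 3 were lower in WT muscle and 2 in Tg muscle, and 0 were higher. Over all genes 6.87% were lower in WT muscle and 2.55% in Tg muscle. Tcf7, the factor TCF-1 of resting and memory T cells, was lower by -3.20 ± 0.38 in WT and -5.41 ± 0.49 in Tg (edgeR adjusted p = 0.000525 and 0.000151). Cxcr5, the receptor that brings T cells to B cell follicles, was lower by -2.86 ± 0.31 and -3.78 ± 0.38 (edgeR adjusted p = 2.74e-05 and 1.92e-05). Il6ra was lower by -0.77 ± 0.19 in WT (edgeR adjusted p = 0.0118). Bcl6 was called in neither tissue comparison and went opposite ways in the genotypes. In Tg it had 44.5 and 55.19 CPM in muscle against 19.96 and 30.14 CPM in injured spleen. In WT it had 13.98 and 23.73 CPM in muscle against 28.85 and 31.24 CPM in spleen. Its interaction of 1.69 ± 0.46 did not pass (edgeR adjusted p = 0.276).

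**Figure D5:**
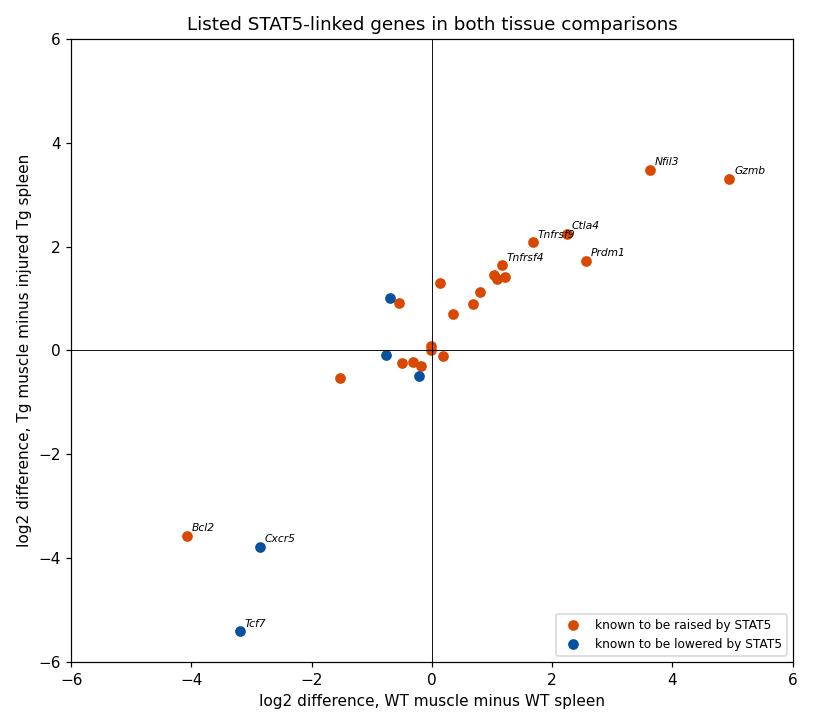
log2 tissue difference in Tg (vertical) against WT (horizontal) for the genes known to be raised (orange) or lowered (blue) by STAT5, with the genes of largest difference named. The comparisons share no library; Gzmb and Nfil3 lie at upper right, and Bcl2, Cxcr5 and Tcf7 at lower left.

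Of 21 tested genes of the PI3K and MAPK arms of the receptor, 2 were higher in muscle in each genotype and 0 lower. Over all genes 9.38% were higher in WT and 4.83% in Tg, so the counts are not read as a result about these arms. The 2 genes were Grb2, an adaptor, higher by 0.88 ± 0.24 in WT and 0.85 ± 0.23 in Tg (edgeR adjusted p = 0.0217 and 0.037), and Map2k1, a MAPK kinase, higher by 0.61 ± 0.18 and 0.94 ± 0.18 (edgeR adjusted p = 0.035 and 0.00477). The WT calls fell to 0 without WT muscle replicate 2 or WT spleen replicate 2 and to 1 without WT spleen replicate 1, and the Tg calls to 0 without injured Tg spleen replicate 1 and to 1 without injured Tg spleen replicate 2 or Tg muscle replicate 1. The list medians were -0.09 and 0.04.

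Between genotypes in muscle edgeR called 0 genes over these pathway lists, DESeq2 called 4, all on the list lowered by STAT5, and 16 had an unadjusted p under 0.05. Leaving out any 1 of the 4 compared libraries gave edgeR calls on that list, 1 without Tg muscle replicate 1 and 2 without each of the others. The list raised by STAT5 had 3 calls without WT muscle replicate 2 and 1 without WT muscle replicate 1, and the inhibitors had 1 without WT muscle replicate 1. Of the list lowered by STAT5 Cxcr5 was nearest to the threshold, at -1.99 ± 0.39 in Tg against WT muscle (edgeR adjusted p = 0.0519). All 5 genes of that list had an unadjusted edgeR p under 0.05, and they went both ways. Bcl6 (49.85 against 18.86 CPM) and Il6ra (138.9 against 98) had higher group means in Tg than WT muscle. Tcf7 (4.353 against 27.64 CPM), Cxcr5 (4.206 against 16.93) and Il6st (146.2 against 261.7) had lower ones. In the interaction edgeR called 0, DESeq2 called 2, and 17 had an unadjusted p under 0.05. Between injured and uninjured Tg spleen edgeR and DESeq2 each called 0, and 2 had an unadjusted p under 0.05.

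Genes whose pattern was most like that of a member were found by the root mean squared difference of centred log2 CPM over the 10 libraries, among 7651 genes of sufficient level. For Il2ra they were Arhgef10 (0.16), Hsf2 (0.26) and Stat3 (0.27), where the SD of Il2ra itself was 0.65. Arhgef10 had 31.8 ± 2.61 CPM in Tg muscle, 25.4 ± 1.44 in WT muscle, 26 ± 4.77 in WT spleen, 11.5 ± 1.51 in injured Tg spleen and 10.8 ± 0.104 in uninjured Tg spleen (SD, n = 2). It was picked for its likeness to Il2ra, so its low level in Tg spleen follows from that choice. For Il7r they included Ncf4 (0.15) and M6pr (0.15), with an SD of 0.44 for Il7r. For Cish they were Mapkapk3 (0.13), Tnfrsf18 (0.14) and Cd274 (0.17), with an SD of 0.69 for Cish. Mapkapk3, a kinase downstream of p38, lies 6148 bases from Cish on chromosome 9 with 0 annotated genes between. It had 556 ± 3.94 CPM in Tg muscle, 405 ± 22.1 in WT muscle and between 210 and 225 CPM as group means in spleen (SD, n = 2). Tnfrsf18 is the Treg receptor GITR and Cd274 is PD-L1. These genes were picked for likeness over the same 10 libraries, so the likeness is a description only.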

How the data were processed

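Polyadenylated RNA of sorted Tregs was primed with oligo(dT), amplified and fragmented by transposon, per the labels' protocols, which marks no strand. The deposited values are whole-number read counts per gene: alignment by the authors was with STAR 2.5.4 to mm10 and counting with featureCounts, per the submitters' processing notes. For featureCounts the version, annotation and strand use were not given in the sources used here.

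The 10 Treg libraries entered 1 fit in edgeR 4.0.16 (R 4.3.3): filterByExpr by group, TMM, estimateDisp, robust glmQLFit and glmQLFTest, with 5 residual degrees of freedom, Benjamini-Hochberg adjustment over 13188 genes, a threshold of 0.05 and no minimum fold. SE is the log2 difference divided by the root of F. The 95% intervals are for 1 gene each and are not adjusted for the number of genes. The 6 whole muscle libraries entered no comparison. TPM used GENCODE exon lengths on mm10, with 10 of 10 members and 49439 of 52997 symbols matched. Depth ran from 1986700 to 9116800 counts per library. Floors cover counting error only.

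The labels do not say whether libraries came from separate animals, so each p-value is set against a spread between samples that may be technical. Correlations of the deviations of same-numbered libraries over 10 pairs of groups ran from -0.04 to 0.09. They do not show whether these libraries share animals or a batch. The members and lists were chosen with earlier results of these data known. The rule for other named genes was up to 3 called genes of largest change per list and comparison, or the smallest p where none was called, and the 3 most similar genes for Il2ra, Il7r and Cish, with Foxp3 and Cd4 as references. A gene that this rule names is not reported here. Some genes outside that rule are named where a count turned on them (Lta) or a list went both ways (Il6st). Others are named where the largest changes of a list are shown. The procedure was tested on simulated data. It recovered fewer changes in the interaction than in the other comparisons, and a pass criterion on the recovered share, set beforehand, was dropped after the interaction missed it. Alternatives were relative log expression scaling, no filter on low counts, DESeq2 1.42.0, a replicate block, the compared groups only, removal of receptor gene segments, and leaving out each library.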

Additional observations from a re-analysis of the deposited data

Results flagged for a closer look

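The tissue difference of Il2ra was larger in Tg than in WT Tregs by 1.5 on the log2 scale, by the interaction test of the edgeR fit (adjusted p = 0.0245). The B cell markers that set WT spleen replicate 2 apart (1872 CPM in sum) move with 1 of the 8 libraries behind this value, which was 1.36 without that library (adjusted p = 0.0893). The call was also lost without injured Tg spleen replicate 1 (adjusted p = 0.129) or replicate 2 (0.145), in which those markers summed to between 106.5 and 170 CPM.

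The 6 whole muscle libraries were taken 8 days after injury and enter no comparison above. In them Il7r was higher in every Tg library than in every WT library, and Il2ra was so by observed CPM only. That way of looking was chosen after the values were seen, and no test was made. For whole muscle, CPM is relative to the library total only, without a TMM factor. Il2ra averaged 0.928 CPM in Tg whole muscle (2, 4 and 13 counts) and had 0, 0 and 0 counts in WT, where a count of 0 allows up to 0.434, 0.442 and 0.589 CPM. The Tg mean rests largely on 1 library, at 1.84 CPM. Tg replicate 1, at 0.329 CPM, lay below all of these WT limits, so its Il2ra cannot be ranked above WT. Il7r averaged 6.15 CPM in Tg whole muscle (6.25, 7.54 and 4.66 CPM), against 0.145, 3.98 and 3.14 CPM in WT. The part of the number of Tregs in the tissue was not tested. Foxp3 had 0, 10 and 0 counts in Tg and 4, 0 and 0 in WT.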

How the results depend on the processing

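The number of called members moved most with the filter, the tool and the libraries in the fit. In the WT tissue comparison it was 4, 2 with only the compared groups, and 2 to 5 when leaving out 1 library. In the Tg tissue comparison it was 3, 6 with no filter on low counts, 5 with DESeq2, 7 with only the compared groups, and 2 to 3 when leaving out 1 library. Between genotypes in muscle it was 0, and 3 with no filter (Il2ra and Cish higher, Socs2 lower, adjusted p = 0.0152, 0.0294 and 0.0276). It stayed 0 when leaving out 1 library. Between genotypes in spleen it was 1, 3 with no filter, with DESeq2 and with only the compared groups, and 0 to 1 when leaving out 1 library. In the interaction it was 1, 0 with only the compared groups, and 0 to 1 when leaving out 1 library. Between injured and uninjured Tg spleen it was 0 under every alternative run. In the WT tissue comparison Jak3 also gained a call with DESeq2 (adjusted p = 0.00993) and with no filter on low counts (edgeR adjusted p = 9.73e-06). The causes were not tested.

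With the replicate block the numbers were 4, 3, 0, 1, 0 and 1, in the order above with the interaction last, and no member's call changed, while 4 counts of pathway lists moved by over 1.5 times, each by 1 gene. Whether same-numbered libraries share animals or a batch is not known. Of 640 member values under alternatives, 546 kept sign and call, 16 lost the call, 22 gained it, 56 changed sign with no call in either fit, and 0 reversed a call. Of 448 counts of pathway lists, 65 moved by over 1.5 times. Counts of marker lists were not compared under the alternatives. Over all genes, 42 genes were called between genotypes in muscle, against 195 with no filter and 96 with DESeq2, and 18 in the interaction, against 140 and 64. Leaving out 1 library gave 25 (without Tg muscle replicate 1) to 361 (without WT muscle replicate 1) in the former and 3 (without injured Tg spleen replicate 1) to 241 (without WT muscle replicate 1) in the latter, and 57 to 160 between genotypes in spleen, against 172. With 2 libraries per group, small differences could not be resolved.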
